A study of Homo sapiens with 30 samples.

Results

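The comparison described here sets trimethylation of histone H3 at lysine 4 (H3K4me3) in cells given 500 nM JIB-04 against the same mark in cells given 150 nM JIB-04. Its members are the peaks of the H3K4me3 table on the autosomes and chromosome X, 21102 of the 21268 peaks in that table, and 20248 of them held enough reads to be tested (20402 with the remaining contigs). All libraries came from OCI-Ly1, an established human cell line of germinal centre B-cell-like diffuse large B-cell lymphoma. The series holds 30 ChIP-seq libraries. Of these, 4 form the comparison, 2 at each dose, and 2 H3K4me3 libraries of cells given the vehicle, DMSO, served as the untreated background. A further 6 H3K27ac libraries of the same 3 treatments were used as a second readout. The labels give no duration of treatment and do not say whether replicates came from separate cultures, so the p-values measure only the spread between these libraries, which may be technical.

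JIB-04 is a small-molecule inhibitor of Jumonji-domain histone demethylases, enzymes that use iron, oxygen and 2-oxoglutarate to take methyl groups off lysines. The KDM5 members of that family remove H3K4me3, and KDM4 and KDM3 members act on H3K9. H3K4me3 is laid down by the SET1 and MLL (KMT2) complexes, marks the starts of active genes and of genes with unmethylated CpG islands, and is broad over genes of cell identity. The prolyl hydroxylases of the oxygen-sensing pathway belong to the same wide class of oxygen-using enzymes, and their substrate, the transcription factor HIF, binds the core sequence ACGTG or GCGTG near genes of glycolysis, pH control and mitochondrial turnover.

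The gene-start windows below are shown because genes of the hypoxia and glycolysis list had less H3K4me3 at 500 nM than at 150 nM. CHAC1 had more, and it was picked among rising genes because its window holds the match marked below. Each window is the 250 bases before a RefSeq gene start (GRCh38.p14), 5′ to 3′ along the gene, and the coordinates give the whole window. Capitals mark ACGTG or GCGTG, read as CACGT or CACGC where the match lies on the other strand. In CHAC1 they mark instead the match to TGATGNAA, the core bound by ATF4 with C/EBP partners, again on either strand. The CHAC1 window also holds GCGTG, which was left in small letters. CA9 encodes a carbonic anhydrase (chr9:35673678-35673927, + strand), ADM the peptide adrenomedullin (chr11:10304823-10305072, + strand), PGK1 a glycolytic kinase (chrX:78103998-78104247, + strand), SLC16A3 the lactate exporter MCT4 (chr17:82228792-82229041, + strand), MIR210HG the host transcript of miR-210 (chr11:568458-568707, - strand) and CHAC1 a glutathione-degrading enzyme (chr15:40953221-40953470, + strand).
CA9: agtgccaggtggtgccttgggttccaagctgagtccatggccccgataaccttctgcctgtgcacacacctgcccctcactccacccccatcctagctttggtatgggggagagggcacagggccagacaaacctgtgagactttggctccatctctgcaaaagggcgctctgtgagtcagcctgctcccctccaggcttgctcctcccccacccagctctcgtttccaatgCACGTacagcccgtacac
ADM: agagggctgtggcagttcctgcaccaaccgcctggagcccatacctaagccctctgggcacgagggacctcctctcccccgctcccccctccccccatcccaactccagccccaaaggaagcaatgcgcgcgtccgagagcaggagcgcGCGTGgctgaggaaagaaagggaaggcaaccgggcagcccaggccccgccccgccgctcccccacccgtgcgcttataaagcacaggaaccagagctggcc
PGK1: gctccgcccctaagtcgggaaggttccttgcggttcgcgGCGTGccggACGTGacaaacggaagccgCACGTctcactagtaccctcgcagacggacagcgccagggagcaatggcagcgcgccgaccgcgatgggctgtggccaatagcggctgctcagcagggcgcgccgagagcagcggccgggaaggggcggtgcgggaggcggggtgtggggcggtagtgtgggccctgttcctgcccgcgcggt
SLC16A3: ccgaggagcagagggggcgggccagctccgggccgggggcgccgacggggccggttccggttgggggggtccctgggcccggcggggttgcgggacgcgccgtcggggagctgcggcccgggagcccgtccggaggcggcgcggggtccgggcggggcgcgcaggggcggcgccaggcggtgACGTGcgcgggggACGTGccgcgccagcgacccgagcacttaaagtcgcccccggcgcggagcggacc
MIR210HG: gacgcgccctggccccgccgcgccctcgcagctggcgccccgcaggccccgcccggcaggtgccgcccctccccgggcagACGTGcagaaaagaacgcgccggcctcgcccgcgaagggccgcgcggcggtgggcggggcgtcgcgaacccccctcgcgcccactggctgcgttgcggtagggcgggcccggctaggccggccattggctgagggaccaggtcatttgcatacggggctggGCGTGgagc
CHAC1: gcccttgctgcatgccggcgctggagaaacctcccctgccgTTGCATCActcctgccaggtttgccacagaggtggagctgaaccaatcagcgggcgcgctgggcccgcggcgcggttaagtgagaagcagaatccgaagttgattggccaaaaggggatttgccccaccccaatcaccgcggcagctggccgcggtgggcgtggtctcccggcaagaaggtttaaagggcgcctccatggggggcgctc
The mature product of the MIR210HG locus is printed with its seed, bases 2 to 8, in capitals (chr11:568112-568133, - strand).
hsa-miR-210-3p: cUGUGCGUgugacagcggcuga
Of the 12869 genes with a tested peak within 1000 bp of their start, 23.5% held ACGTG in this window, as did 18.5% of all 35116 windows of the table. In the hypoxia and glycolysis list 10 of 16 genes (62.5%) held it, and 15 of 16 (93.8%) held ACGTG or GCGTG, against 58.6% of all genes with a peak. That list was chosen for hypoxia with earlier results of these data known, so its share describes the list and tests no response. Of 2624 genes called lower between the doses, as defined below, 60.9% held either motif. The shares were 54.7% of 2245 called higher and 59% of 8000 not called. GCGTG alone was in 50% of the list and 47% of all genes with a peak. Both motifs contain CG, and the list's windows had a median GC content of 71.4% and 26 CpG dinucleotides, against 66.4% and 22. ACGTG or GCGTG was also in 18 of 21 genes (85.7%) of the stress response list, more of which rose than fell, in 11 of 15 iron handling genes (73.3%) and in 43.8% of the 185 genes whose start peak fell by at least 0.5 on the log2 scale. TGATGNAA was in 2 of 21 genes of the unfolded protein and integrated stress response list and in 1.15% of all genes with a peak. The windows of DDIT3, TRIB3 and ADM2, whose H3K4me3 also rose, held 0 matches to it. These counts describe letters in a window and not binding.

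The H3K4me3 libraries held between 9686420 and 12327122 reads in peaks, with a median of 263 to 328 reads per peak. The 2 libraries at 150 nM differed by less than counting noise (chi-square per degree of freedom 0.923), while a DMSO and a 150 nM library also did so (0.952), and the pair at 500 nM gave 1.19. Between the doses the value was 7.48 to 8.43. Because libraries of different treatments also lay under the noise, both 150 nM libraries were kept. With the pair summed to 1 sample, only the total of H3K4me3 peaks called between the doses is given, near the end. Among B-cell markers with a tested gene-start peak, PAX5 was at 490 and 473 CPM in DMSO, and CD79A at 116 in both DMSO libraries. Of markers for other cells, the neuronal list had TUBB3 (90.1 and 95.7 CPM in DMSO) and SYP (10.2 and 10.6). The T-cell list had LCK (57.5 and 56.1 CPM in DMSO) and CD3D (9.31 and 7.86), and CD14, NCR1 and PDGFRB lay between 1.47 and 11.8. The epithelial list had no tested peak, but only 2 of its 6 genes had a start in the gene annotation used. Of the 8 B-cell markers 4 had one.

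H3K4me3 differed between the doses at 7937 of the 20248 peaks (39.2% of all tested peaks), by edgeR's quasi-likelihood test with a Benjamini-Hochberg adjusted p under 0.05. At 500 nM 4154 were higher and 3783 lower. Over all tested peaks, with the remaining contigs, the shares were 20.5% higher and 18.6% lower. The rises were larger: the median log2 fold change was 0.67 among peaks called higher and -0.25 among those called lower, and 1355 rose but 500 fell by at least 1 on the log2 scale. The median over all tested peaks was -2.94e-04 after the scaling, which centres the peaks, so a change shared by all peaks is not measured. With DESeq2 3435 peaks were called, all of them among the 7937.

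**Figure D1:**
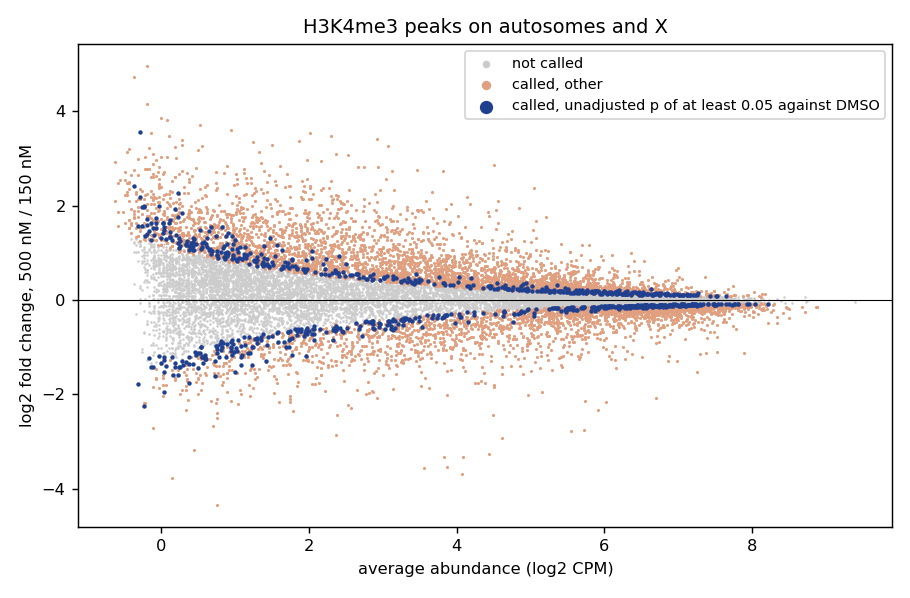
Log2 fold change of H3K4me3 between 500 nM and 150 nM against average abundance (log2 CPM) for each tested peak on autosomes and chromosome X. Dark blue points are the 871 peaks called between the doses whose unadjusted p against DMSO was at least 0.05, and they lie along the inner border of the called points.

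Which genes respond only between the 2 doses depends on whether 150 nM itself differs from DMSO, because the log2 fold change of 500 nM against 150 nM minus that of 500 nM against DMSO is that of DMSO against 150 nM. No peak was called for 150 nM against DMSO (0 of 20248, 0% of all tested, edgeR), 940 had an unadjusted p under 0.05 (4.64%), and DESeq2 also called 0. The smallest adjusted p was 0.657. No single peak therefore passed the test of a response between the doses that differed from its response against DMSO. Against DMSO 7980 peaks were called at 500 nM (39.4% of all tested), a comparison that shares the 500 nM libraries with the one between the doses.

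By calls alone, 1430 peaks passed between the doses and not against DMSO, 687 higher and 743 lower. Of these, 871 also had an unadjusted p of at least 0.05 against DMSO, 424 higher and 447 lower. These values chose the peaks and are given as a description. In the set of 1430 the median log2 fold change was 0.43 between the doses and 0.23 against DMSO for the higher peaks, and -0.19 and -0.11 for the lower peaks, so 500 nM stood on the same side of both other groups at all but 6 higher and 4 lower peaks. The last peak called against DMSO had an adjusted p of 0.0499 and the first not called 0.05002. With the scaling fitted along abundance the set held 1338 peaks, but only 367 of them were among the 1430. Scaling by total counts gave 1364 peaks, 846 of them shared. The set changed with its settings: it held 562 peaks with DESeq2, 40 of them shared with the 1430, and 2814 without DMSO replicate 1 and 2486 without DMSO replicate 2. It held 609 and 752 without 150 nM replicates 1 and 2.

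The stricter set of 871 behaved alike under those settings, with 139 peaks by DESeq2, 23 of them shared. Scaling along abundance gave 806 peaks, 180 of them shared with the 871, and total counts 850, with 491 shared. Leaving out 1 library gave 1849 and 1576 peaks without DMSO replicates 1 and 2, 355 and 446 without those at 150 nM, and 494 without 500 nM replicate 1. In that set 95 peaks were higher and 65 lower by at least 1 on the log2 scale. The largest rise was 3.57 and the largest fall -2.24, both at an average abundance below 1 CPM in the plot of change against abundance. Gene starts made up 42% of its higher and 45.6% of its lower peaks, against 48% and 55.5% of all peaks called higher and lower.

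Among the stronger gene-start peaks of the stricter set, those above the median abundance whose libraries at the 2 doses did not overlap, 118 were higher and 180 lower. The largest changes there were small, at most 0.25 for the rises and -0.34 for the falls. VSIR, which encodes the immune checkpoint receptor VISTA, had 32.4 and 32.2 CPM with DMSO, 39.3 and 34.4 with 150 nM, and 28.2 and 30.2 with 500 nM. At its peak (chr10:71772749-71774387) the libraries of the 2 doses did not overlap, and both DMSO libraries lay between them. The log2 fold change was -0.34 ± 0.075 (SE, adjusted p = 0.000181) between the doses and -0.15 against DMSO (adjusted p = 0.117). LEKR1 had 102 and 98.8 CPM with DMSO, 91.4 and 89.1 with 150 nM, and 104 and 108 with 500 nM, a rise of 0.23 between the doses (adjusted p = 1.79e-05) and 0.07 against DMSO. Here 150 nM was the low group and the DMSO and 500 nM libraries lay close together.

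DUS3L, a tRNA dihydrouridine synthase gene, gave 53 and 55.5 CPM with DMSO, 46.6 and 47.6 with 150 nM, and 54.7 and 53.8 with 500 nM. Its fold change was 0.21 between the doses and 0.00 against DMSO (unadjusted p = 0.946), with -0.20 for 150 nM against DMSO (adjusted p = 0.727). CLOCK, a transcription factor of the circadian oscillator, stood at 69.7 and 65.1 CPM at 150 nM and 76.4 and 80 at 500 nM, with DMSO at 70.7 and 77.5, above both 150 nM libraries and overlapping those at 500 nM. The other rises of this kind were ZNF22-AS1/ZNF22 (0.25), LINC00237 (0.22) and CLDN12, PSTK and CCDC102A (0.21 each). WIPF1, an actin regulator of lymphocytes, had 44.8 and 41.4 CPM with DMSO, 49.1 and 49.6 with 150 nM, and 43.6 and 38.1 with 500 nM, a fall of -0.26. PTPN22, a phosphatase of antigen-receptor signalling, had 53.5 and 49.3 CPM at 150 nM and 46.4 and 41.5 at 500 nM, and its DMSO libraries, at 49.5 and 43.9, overlapped both. The remaining falls were MYO18A (-0.27), NEDD9 and EIF3F (-0.23 each), and DENND1C and KANK2 (-0.22 each). Of these 16 peaks 14 lost their call with DESeq2, and LEKR1 and VSIR kept it. Leaving out 1 library ended the call at 12 of the 16, with adjusted p-values of 0.0506 to 0.259. These were LINC00237, CLDN12, DUS3L, VSIR, PTPN22, DENND1C and KANK2 without 150 nM replicate 1, CLOCK and PSTK without 150 nM replicate 2, LINC00237 and PSTK without 500 nM replicate 1, and CLDN12, PSTK, CCDC102A, WIPF1, NEDD9, PTPN22 and DENND1C without 500 nM replicate 2.

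Gene-start peaks above the median abundance (4.97 log2 CPM) are described next, and weaker peaks with larger changes are left out of this ranking. The 12 largest rises among them were also rises against DMSO. SH3BP2, an adaptor of immune receptor signalling, had 13.1 and 12.2 CPM with DMSO, 14.9 and 13.5 with 150 nM, and 72.4 and 74.0 with 500 nM. The 500 nM libraries stood apart from all others, and the log2 fold change between the doses was 2.36 ± 0.073 (SE, adjusted p = 1.39e-34). Its peak (chr4:2792719-2795125) also gained H3K27ac (1.46, adjusted p = 1.49e-06). DUSP6, the phosphatase that switches off ERK, had 21.7 and 20.8 CPM with DMSO, 19.1 and 21.8 with 150 nM, and 57.6 and 55.6 with 500 nM, a rise of 1.47 (adjusted p = 4.43e-25). DMSO and 150 nM overlapped there, as they did at FERMT2, which encodes the integrin activator kindlin-2 (20.4 and 23.7 CPM at 150 nM, 54.2 and 55.8 at 500 nM, a rise of 1.32).

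ADM2, the gene of the peptide intermedin, had 38.6 and 39.2 CPM with DMSO, 34.8 and 36.7 with 150 nM, and 78.8 and 82.6 with 500 nM. Both marks rose, H3K4me3 by 1.17 ± 0.057 (SE, adjusted p = 2.55e-25) and H3K27ac by 1.09 (adjusted p = 0.00223). RIMS3, of the RIM family of presynaptic proteins, had 34.1 and 39.1 CPM with DMSO, 34.0 and 33.9 with 150 nM, and 70.1 and 67.5 with 500 nM. It rose by 1.02 in H3K4me3 and by 1.59 in H3K27ac (adjusted p = 1.65e-08), with H3K27ac at 12.1 and 9.99 CPM at 150 nM and 31.1 and 35.4 at 500 nM. The peak over the starts of CDKN1A, the p53-induced cell cycle inhibitor p21, and its neighbouring non-coding transcript DINOL had 58.5 and 59.0 CPM with DMSO, 65.5 and 59.5 with 150 nM, and 124 and 127 with 500 nM (1.00 ± 0.046, SE, adjusted p = 1.68e-26). One peak with 2 starts cannot be divided between them. This also holds for CMPK2/RSAD2, a head-to-head pair of interferon-induced genes, at 27.7 and 25.5 CPM at 150 nM and 55.2 and 54.9 at 500 nM (1.05). GSDME, a pore-forming gasdermin, went from 36.0 and 31.0 CPM at 150 nM to 66.6 and 68.9 (1.01). The other large rises were MDGA1 (1.18), FAM43A (1.04), HUNK (1.03) and CHRM4 (0.97).

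Among gene-start peaks above the median abundance the largest fall was at AMPD2 (chr1:109622797-109625985), which encodes an AMP deaminase. Its peak had 75.2 and 69.7 CPM with DMSO, 73.2 and 74.5 with 150 nM, and 10.6 and 11.3 with 500 nM. The DMSO and 150 nM libraries overlapped and the 500 nM libraries lay far below them, with a log2 fold change of -2.75 ± 0.078 (SE, adjusted p = 2.34e-36). H3K27ac there was 51.8 and 54.3 CPM at 150 nM and 38.4 and 41.1 at 500 nM (-0.42, adjusted p = 0.0899). A peak inside HIF1A over the starts of its antisense transcripts HIF1A-AS2 and HIF1A-AS3 (chr14:61747878-61752334) had 76.3 and 61.9 CPM with DMSO, 76.3 and 68.3 with 150 nM, and 17.2 and 15.6 with 500 nM (-2.14, adjusted p = 5.67e-30). The long non-coding RNA gene SCIRT had 137 and 125 CPM with DMSO, 147 and 139 with 150 nM, and 36.6 and 30.2 with 500 nM (-2.08), and its H3K27ac also fell, by 0.52 on the log2 scale (adjusted p = 0.000827).

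Several of the other large falls lay at genes known as HIF targets. MIR210HG, the host of the microRNA whose seed is printed above, had 148 and 154 CPM with DMSO, 164 and 158 with 150 nM, and 70.1 and 61.1 with 500 nM (-1.28 ± 0.045, SE, adjusted p = 4.46e-32). Its peak (chr11:566925-569909) spans the miR-210 hairpin. SLC16A3, whose window above holds 2 ACGTG matches, had 112 and 110 CPM with DMSO, 122 and 102 with 150 nM, and 48.0 and 49.0 with 500 nM (-1.22). PFKFB4, an enzyme that sets fructose 2,6-bisphosphate, had 99.3 and 102 CPM with DMSO, 105 and 97.5 with 150 nM, and 47.5 and 44.0 with 500 nM (-1.14). In each of these the 500 nM libraries were below all 4 others. The peak over the starts of ADM and SBF2 had 287 and 283 CPM with DMSO, 299 and 284 with 150 nM, and 139 and 127 with 500 nM (-1.13). CHLSN fell from 212 and 190 CPM to 72.3 and 66.8 (-1.53).

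The remaining falls in this group were at genes of surface receptors, signalling and adhesion. FCRL2, an Fc receptor-like protein of B cells, went from 43.3 and 45.8 CPM at 150 nM to 22.0 and 17.4 (-1.16). CEACAM1, a cell adhesion receptor, went from 60.4 and 53.8 CPM to 28.7 and 22.7 (-1.14). WNT10A, a Wnt ligand, went from 201 and 206 CPM to 96.7 and 90.5 (-1.12), with H3K27ac also lower (-0.35, adjusted p = 0.0373). PARVB, a focal adhesion protein, fell by 1.09 on the log2 scale. All 24 of these rises and falls kept their direction and call under every alternative tried.

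**Figure D2:**
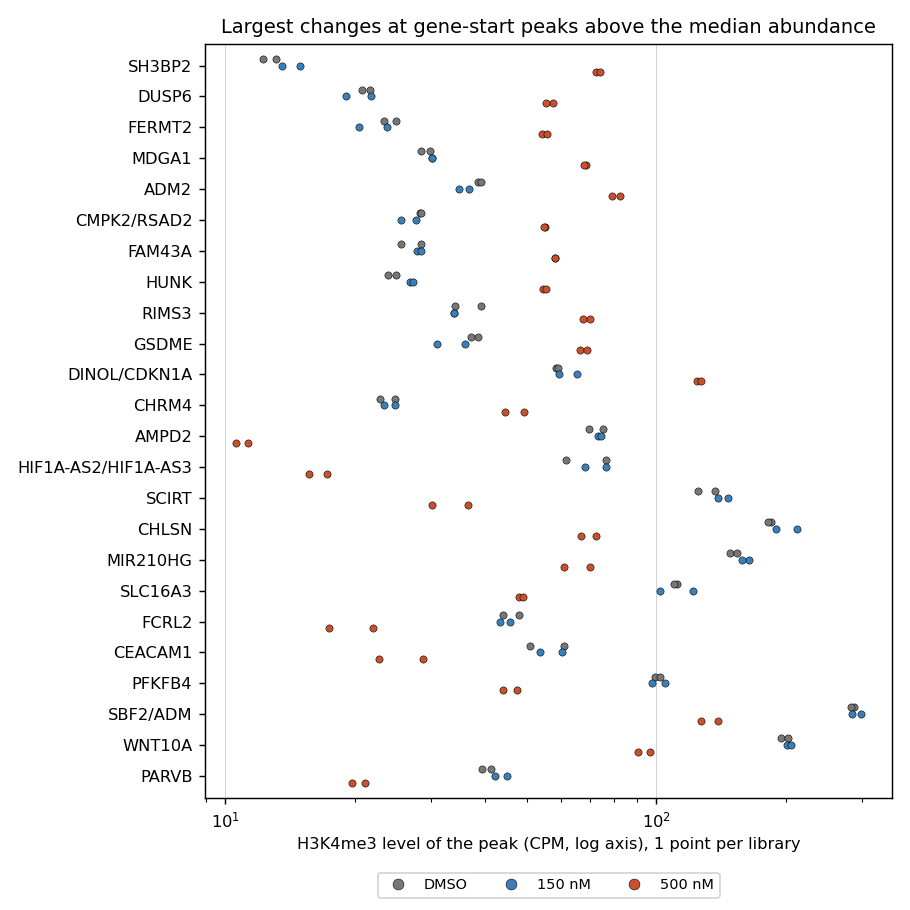
H3K4me3 level (CPM, log axis) in each of the 6 libraries at the 12 largest rises and 12 largest falls between the doses among gene-start peaks above the median abundance. The 500 nM points stand apart from the 150 nM and DMSO points in each row, and the 150 nM points lie near or among the DMSO points.

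The hypoxia and glycolysis list held 22 genes, 16 of them with a tested gene-start peak, and all 16 were lower at 500 nM than at 150 nM with an adjusted p under 0.05. Of all 12869 genes with such a peak 17.4% were higher and 20.4% lower, and the counts of every list below stand against these shares. The lists were chosen with earlier results of these data known, so their counts are a description and not an independent test. The list's median log2 fold change was -0.44, against -0.02 over all genes. CA9, the carbonic anhydrase gene, had 28.8 and 28.3 CPM with DMSO, 36.0 and 29.6 with 150 nM, and 11.5 and 10.4 with 500 nM (-1.58 ± 0.10, SE, adjusted p = 1.3e-19). PFKFB3, a relative of PFKFB4, had 197 and 191 CPM in DMSO, 195 and 199 at 150 nM and 123 in both libraries at 500 nM (-0.67). BNIP3, a mitophagy receptor, had 136 and 138 CPM with DMSO, 138 and 135 with 150 nM, and 86.5 and 89.2 with 500 nM (-0.64). In these genes the DMSO and 150 nM libraries overlapped or nearly so, and both 500 nM libraries were lower.

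PGK1, whose window has 3 matches, had 87.0 and 83.3 CPM with DMSO, 88.7 and 85.3 with 150 nM, and 57.5 and 57.8 with 500 nM (-0.59). EGLN1, the main HIF prolyl hydroxylase and itself a HIF target, had 219 and 210 CPM at 150 nM and 153 and 156 at 500 nM (-0.47). SLC2A1, the glucose transporter GLUT1, had 225 and 218 CPM at 150 nM and 159 and 161 at 500 nM (-0.47). The smaller falls were at the collagen prolyl hydroxylase P4HA1 (-0.40), at LDHA, which makes lactate (-0.32), at ANKRD37 (-0.27), at the glycolytic enzymes ENO1 (-0.26), HK2 (-0.25) and ALDOA (-0.23), at PDK1, which holds pyruvate out of mitochondria (-0.22), and at the demethylase KDM3A (-0.22). The median for 150 nM against DMSO in this list was 0.02. H3K27ac was called at none of the 15 genes with a paired H3K27ac peak, and 10 of those had a negative value, with a median of -0.13.

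**Figure D3:**
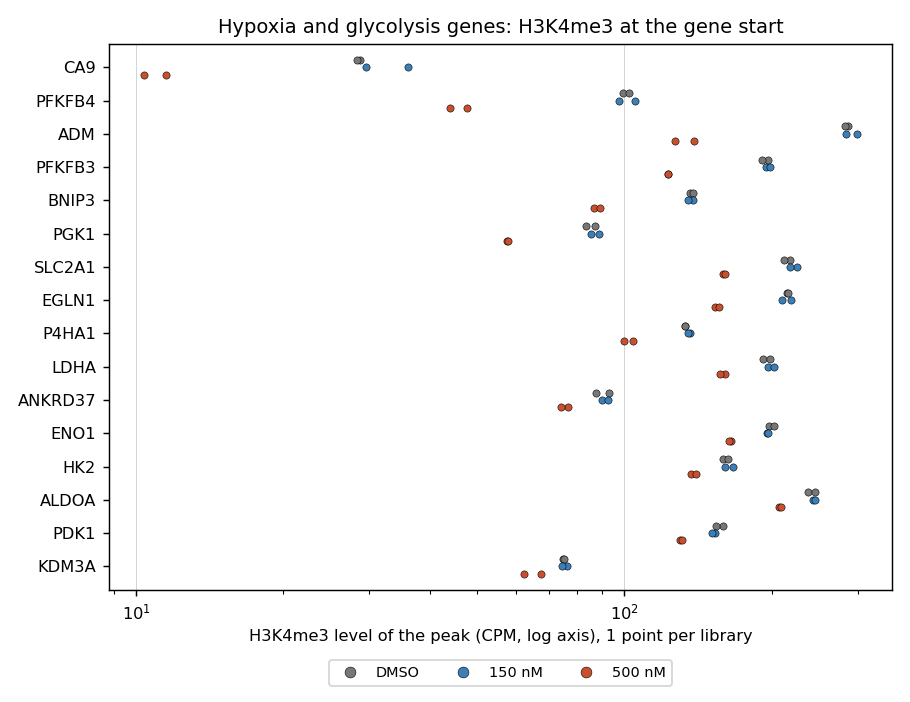
H3K4me3 level (CPM, log axis) in each library at the 16 hypoxia and glycolysis genes with a tested gene-start peak. Both 500 nM points lie left of both 150 nM points in all 16 rows, from CA9 (-1.58 on the log2 scale) to KDM3A (-0.22).

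In the unfolded protein and integrated stress response list, genes that cells switch on when protein folding or amino acid supply fails, 11 of 21 genes with a tested peak rose and 4 fell, with a median of 0.12. CHAC1 had 106 and 112 CPM with DMSO, 104 and 107 with 150 nM, and 166 and 170 with 500 nM (0.67 ± 0.038, SE, adjusted p = 4.3e-22), and its H3K27ac rose by 1.06 (adjusted p = 1.6e-07). PPP1R15A, which encodes the GADD34 phosphatase subunit that ends the eIF2-alpha block, had 77.6 and 73.6 CPM with DMSO, 75.3 and 74.7 with 150 nM, and 110 and 119 with 500 nM (0.60). DDIT3, the transcription factor CHOP, had 74.1 and 72.1 CPM with DMSO, 69.7 and 70.1 with 150 nM, and 95.6 and 98.9 with 500 nM (0.47), with H3K27ac higher by 0.84. At all of these the 500 nM libraries were above the other 4.

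XBP1, the transcription factor spliced by IRE1, rose by 0.53, and ERN1, which encodes IRE1, by 0.46. SESN2, a stress-induced regulator of mTORC1, rose by 0.39 in H3K4me3 and by 0.91 in H3K27ac. HERPUD1 (0.29), TRIB3 (0.26), ASNS (0.16), HSP90B1 (0.16) and SDF2L1 (0.12) rose less. DDIT4, an mTORC1 inhibitor that is also induced by hypoxia, went the other way, from 284 and 282 CPM at 150 nM to 218 and 223 (-0.36), and CALR, ATF4 and PDIA4 fell by at most 0.10. H3K27ac was called higher at 4 of the 21 genes and lower at none. With DESeq2 8 of the 21 genes rose.

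The AP-1 and immediate early genes, transcription factors and feedback genes that respond within minutes to signals, had 9 of 17 higher and 2 lower, with a median of 0.13 (0.204 with scaling along abundance). FOSL2 had 72.9 and 63.4 CPM with DMSO, 68.7 and 65.0 with 150 nM, and 118 and 119 with 500 nM (0.83). FOS had 13.6 and 11.5 CPM with DMSO, 17.1 and 16.8 with 150 nM, and 27.7 and 29.4 with 500 nM (0.75), with the 150 nM libraries between the other groups. KLF2, a transcription factor of lymphocyte quiescence, went from 6.00 and 7.26 CPM to 12.2 and 11.7 (0.85), and JUND (-0.25) and ZFP36 (-0.29) fell. Among p53 targets 6 of 17 rose and 1 fell. Besides CDKN1A these were SESN2, the death receptor gene FAS (0.29), ZMAT3 (0.19), DDB2 (0.16) and AEN (0.13), and the fall was at BTG2 (-0.20).

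Of the iron handling genes 6 of 15 rose and 2 fell, with a median of -0.02 (0.02 with scaling by total counts or along abundance, 0.0279 and -0.0573 without 500 nM replicates 1 and 2). CYBRD1, a ferric reductase, was weak in DMSO (1.63 and 1.57 CPM) and at 150 nM (1.97 and 0.745) and had 6.89 and 9.09 CPM at 500 nM (2.52 ± 0.27, SE, adjusted p = 1.5e-11). STEAP3, another metalloreductase, went from 6.99 and 6.42 CPM to 14.8 and 13.9 (1.10). The metal-binding metallothioneins MT1X (0.63) and MT2A (0.58) rose, as did SLC30A1 and PCBP1 (0.13 each), and the transferrin receptor gene TFRC (-0.12) and FBXL5 (-0.21), which senses iron, fell. Metallothionein genes resemble each other, so reads may be shared between copies. In the oxidative stress list 2 of 14 genes rose and none fell.

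For the enzymes that JIB-04 is known to inhibit, the Jumonji demethylases, 10 of 20 genes fell and 2 rose. KDM4B, itself a HIF target, had 86.5 and 85.6 CPM with DMSO, 94.5 and 92.6 with 150 nM, and 48.6 and 44.7 with 500 nM (-1.0 ± 0.052, SE, adjusted p = 4.2e-24). The next was KDM6B, an H3K27 demethylase, at 180 and 176 CPM at 150 nM and 142 and 135 at 500 nM (-0.36), and the other falls were between -0.22 (KDM3A) and -0.11 (KDM7A). KDM5B (0.18) and PHF2 (0.23) rose. The H3K4 methyltransferase complexes had 4 of 12 genes lower and none higher, with KMT2C at -0.17, RBBP5 at -0.16, KDM6A at -0.15 and KMT2D at -0.10. The list of H3K9 methylation and HP1 genes had 4 of 15 higher and 3 lower, against 17.4% higher and 20.4% lower over all genes. All lay between SETDB2 (-0.21) and TASOR (0.19).

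**Figure D4:**
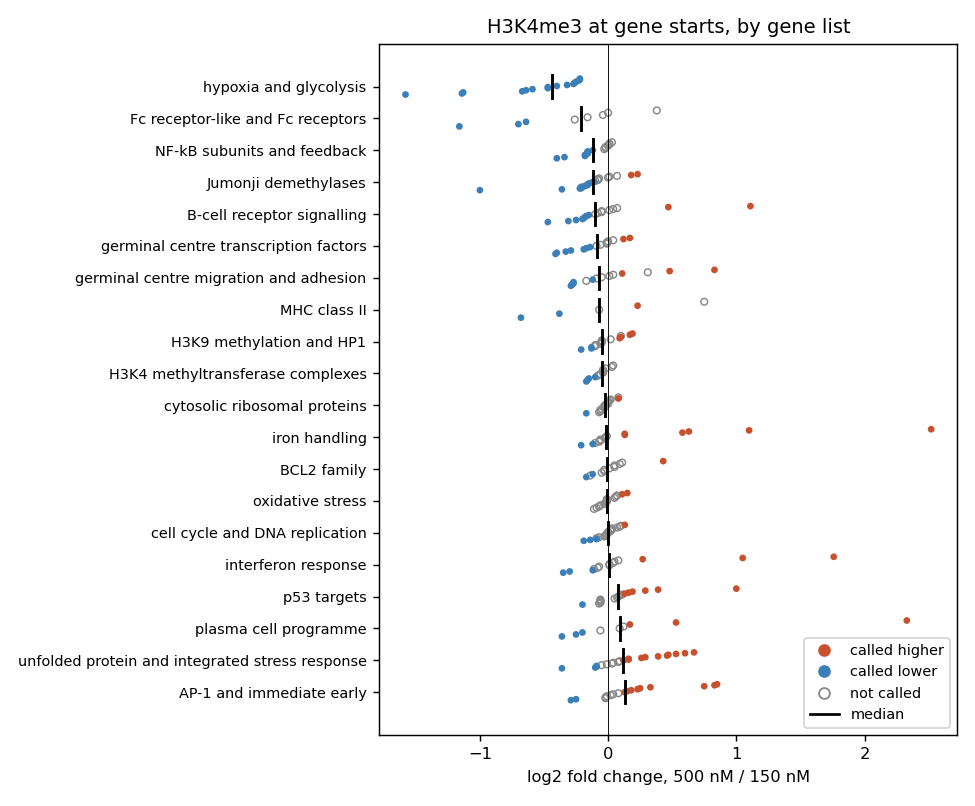
Log2 fold change of H3K4me3 between 500 nM and 150 nM at the gene-start peak of each list member, with 1 point per gene and a bar at the median of its list. The hypoxia and glycolysis list is lower throughout, and most other lists hold members called in both directions.

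Genes of B-cell identity were called in both directions, with small changes at most of them. In the germinal centre transcription factor list 7 of 15 fell and 2 rose, with a median of -0.09 (-0.0469 and -0.138 without 150 nM replicates 1 and 2, -0.0272 with scaling along abundance). TCF4 had 138 and 133 CPM with DMSO, 145 and 128 with 150 nM, and 108 and 96.3 with 500 nM (-0.41), POU2F2 fell by 0.40 and SPIB by 0.33 on the log2 scale. BCL6, the repressor that defines the germinal centre state, changed from 368 and 365 CPM to 335 and 317 (-0.17), and PAX5 from 494 and 480 to 446 and 436 (-0.14). IRF4 (0.17) and IRF8 (0.12) rose. Of the B-cell receptor signalling genes 8 of 17 fell and 2 rose, among them PLCG2, the phospholipase downstream of BTK (-0.47), CD72 (-0.31), CD22 (-0.25) and CD79A (-0.19), and on the other side VAV2 (0.47) and the complement receptor gene CR2, from 7.88 and 8.00 CPM to 16.2 and 18.4 (1.11).

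The plasma cell list had 3 of 9 genes higher and 3 lower. SDC1, which encodes the plasma cell surface marker CD138, was at 3.02 and 2.55 CPM with DMSO, 3.31 and 3.44 with 150 nM, and 15.2 and 19.1 with 500 nM (2.33 ± 0.17, SE, adjusted p = 2.4e-17). XBP1 and IRF4 also rose, whereas CD38 (-0.25), MZB1 (-0.20) and TNFRSF13B (-0.36) fell. NF-kB subunits and feedback genes had 8 of 15 lower and none higher, from TNIP1 (-0.40) and TRAF3 (-0.34) to TNFAIP3 (-0.12). The Fc receptor-like list had 3 of 8 lower and none higher. FCRLB went from 55.3 and 59.0 CPM to 37.3 and 32.8 (-0.70), and FCRL3 from 60.1 and 58.4 to 39.7 and 36.1 (-0.64). In the MHC class II list 2 of 5 genes with a tested peak fell, HLA-DMA (-0.68) and HLA-DMB (-0.38), and RFX5 rose (0.23).

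In the migration and adhesion list 3 of 14 genes rose and 5 fell. S1PR1, the receptor that leads lymphocytes out of tissue, had 21.1 and 19.0 CPM with DMSO, 23 and 22.7 with 150 nM, and 42.5 and 38.5 with 500 nM (0.83), while S1PR2, which holds B cells in the germinal centre, went from 153 and 160 CPM to 130 in both libraries (-0.27). ICAM1 rose by 0.48. In the interferon list 3 of 14 rose and 3 fell, near the shares over all genes (17.4% higher, 20.4% lower). XAF1 was weak throughout (at most 2.89 CPM, 1.76), MX1 was at 0.27 and BST2 at -0.35. The BCL2 family had 1 of 12 higher, the BH3-only gene HRK (0.43), and 2 lower. Cell cycle and replication genes had 1 of 19 higher and 3 lower, and cytosolic ribosomal protein genes 1 of 16 higher and 1 lower, with no change beyond 0.19 in size among either. Of the marker lists, B-cell genes were lower at 3 of 4 and germinal centre genes at 2 of 4. LCK fell by 0.19, and CD14 (0.58), NCR1 (0.44) and PDGFRB (0.93) rose from low levels. Those markers rose together with the other weak peaks, and their part in the results was not tested.

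The calls divided by the width and strength of a peak. In the widest quintile of peaks, from 2653 bp up, 41.6% were lower and 8.54% higher, and in the second narrowest, from 639 to 1305 bp, 10.5% were lower and 35.7% higher. Within the most abundant quintile alone the share called lower was still 39.8% in the widest peaks and 18.9% in the next width class. In that most abundant quintile no peak rose by 1 on the log2 scale and 9 fell by as much. In the least abundant quintile 799 rose and 215 fell by at least 1. Peaks called lower had a median of 739 reads per library and peaks called higher 114, and the part of read depth in these shares was not tested.

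**Figure D5:**
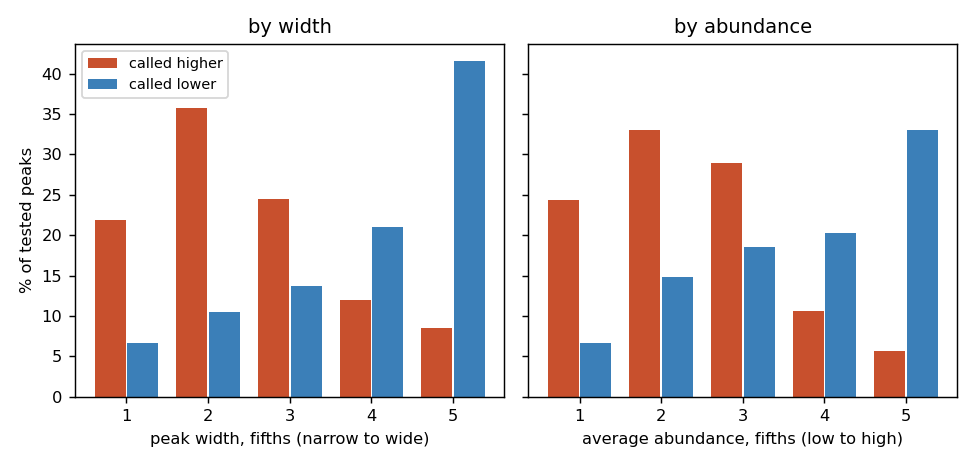
Share of tested H3K4me3 peaks called higher and lower at 500 nM against 150 nM, by quintiles of peak width and of average abundance. The share called lower grows from 6.7% in the narrowest to 41.6% in the widest quintile, and from 6.67% in the weakest to 33% in the strongest.

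At gene starts 18.8% of 10591 peaks were higher and 19.8% lower, and outside genes 25.3% of 2369 were higher and 12.2% lower. Of the 500 peaks that fell by at least 1 on the log2 scale, 57 lay at a gene start of the annotation used. A further 331 lay inside a gene away from such a start and 91 outside genes. The remaining 21 were on chromosome 8, whose gene starts were not analysed here. The annotation also lacked starts of other genes: 4 of 8 B-cell markers and 12 of 18 genes of H3K4 methyltransferase complexes had one. Peaks at missing starts count here as away from starts. Starts of long non-coding RNAs alone were higher at 27.7% of 1002 peaks, and starts of protein-coding genes at 17.9% of 9589. The median fold change at gene starts was 0.09 below that of other peaks, and it was 0.05 above when the scaling was fitted along abundance. The 185 genes whose start peak fell by at least 0.5 had a median GC content of 56.4% and 6 CpG dinucleotides in the 250 bases before the start, against 66.4% and 22 over all genes with a peak. The 1031 genes that rose by as much had 69.2% and 23.

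Outside genes 237 peaks rose and 91 fell by at least 1 on the log2 scale. A separate count took called peaks of any size of change, above the median abundance and with doses not overlapping. Away from genes and their ends, 37 of these were higher and 62 lower. The largest falls among them were at chr10:86389181-86393410 (96.1 and 91.3 CPM at 150 nM, 34.5 and 33.9 at 500 nM, -1.45), chr11:1521097-1524410 (57.6 and 52.1 CPM, then 23.4 and 17.2, -1.42) and chr15:31305966-31308408, 18427 bp from KLF13 (55.1 and 54.2 CPM, then 19.8 and 22.2, -1.39). The last of these carried strong H3K27ac that stayed near its level, at 273 and 340 CPM at 150 nM and 291 and 303 at 500 nM (-0.05, adjusted p = 0.911). The largest rises among these stronger peaks lay at chr5:65034803-65036407 (28.5 and 31.1 CPM, then 43.8 and 40.0, 0.50), at chr2:230411094-230412601, 3600 bp from SP100 (42.2 and 42.6 CPM, then 59.9 and 56.1, 0.45), and at chr18:48975017-48976842, 24052 bp from SMAD7 (30.8 and 31.7 CPM, then 43.6 and 41.9, 0.45).

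H3K27ac, which marks active starts and enhancers, changed between the doses at 687 of 54037 tested peaks (1.27%), 587 higher and 100 lower. It was paired with 15905 H3K4me3 peaks by overlap. Over all pairs the median H3K27ac log2 fold change was 0.02, and H3K27ac was called at 1.14% (130 higher, 51 lower). Of the 4154 H3K4me3 peaks called higher 2101 had a pair, with a median of 0.13 (0.076 and 0.209 without 150 nM replicates 1 and 2). H3K27ac was called at 4.38% of these, 89 higher and 3 lower. Of the 3783 H3K4me3 peaks called lower 3618 had a pair, with a median of -0.03 (0.03 without 150 nM replicate 2). There H3K27ac was called at 1.02%, 3 higher and 34 lower. The share was near that over all pairs, but most calls here were lower, while most over all pairs were higher. At H3K4me3 peaks that rose by at least 1 the median was 0.38 (43 of 271 called higher, none lower), and at those that fell by as much -0.13 (21 of 420 called lower, none higher). In the stricter set of peaks called between the doses but not against DMSO the medians were 0.03 and -0.01, and H3K27ac was called at 1 of 294 and 0 of 410 pairs. Spearman's rho between the marks was 0.23 over the 15905 pairs, which share genome position and base composition. Leaving out 150 nM replicate 1 raised the count of called H3K27ac peaks to 2110, and leaving out either 500 nM library lowered it to 368 and 295.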

How the data were processed

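ChIP-seq of H3K4me3 and H3K27ac in OCI-Ly1 cells was analysed, with 2 libraries each for DMSO, 150 nM and 500 nM JIB-04. Per the file headers, the authors deposited raw read counts per consensus peak from featureCounts 2.0.1, not normalized, where a read counted once a fraction of 0.2 of it lay in the peak. The submitters' processing notes name Trim Galore 0.6.7, BWA 0.7.17-r1188, Picard 2.27.4, MACS2 2.2.7.1 and GRCh38, and the way consensus peaks were made is not given in the sources used here. The headers record a paired-read option and the labels single-end sequencing of 50 bp, which leaves unsettled whether reads or fragments were counted. Coordinates are as deposited with 1 added to the start.

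All 6 libraries of a mark entered one edgeR 4.0.16 fit in R 4.3.3 (filterByExpr, TMM, glmQLFit, glmQLFTest) with the group as factor and Benjamini-Hochberg adjustment at 0.05 over all tested peaks. CPM values use TMM-scaled totals in peaks, and standard errors were derived from the F statistic. Peaks within 1000 bp of a RefSeq gene start (GRCh38.p14) were given that gene, and a list gene took its most abundant peak. The start annotation used was incomplete, and peaks were not assigned to genes missing from it. H3K27ac peaks were paired by largest overlap, at least 1 bp. Tested on simulated data with 200 peaks changed by 1 on the log2 scale, the fit recovered 79.5% for H3K4me3 (20095 peaks, 169 calls, 10 false) and 43.5% for H3K27ac (51892 peaks, 94 calls, 7 false), for 500 nM against 150 nM. Recovery of smaller changes, or with as many changed peaks as were called here for H3K4me3, was not tested.

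Gene-start peaks were named by rule: an adjusted p under 0.05, abundance above the median, libraries of the 2 doses not overlapping and the 12 largest changes in each direction, or the 8 largest among those with an unadjusted p of at least 0.05 against DMSO, or the 3 largest away from genes. List members were named where called. Members, lists and rules were chosen with earlier results of these data known. Alternatives were DESeq2 1.42.0, other scalings and filters, a replicate block, leaving out each library, and, chosen after seeing the data, summing the 150 nM libraries. Figures were drawn with matplotlib 3.10.9. Input, H3K9me2 and H3K9me3 libraries were not analysed here.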

Additional observations from a re-analysis of the deposited data

How the results depend on the processing

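With DESeq2 3435 H3K4me3 peaks were called between the doses and 3443 against DMSO, and a minimum log2 fold change of 1 left 1855 and 1922. Peaks called between the doses and not against DMSO numbered 940 with a mean count of at least 50 and 562 with DESeq2, and 609 to 2814 when 1 library was left out. The stricter set numbered 574 and 139, and 355 to 1849 when 1 library was left out. For 150 nM against DMSO leaving out 1 library gave 0 to 2 calls. H3K27ac calls were 379 with a mean count of at least 50, 196 with DESeq2, 433 with only the 4 libraries of the 2 doses, and 295 to 2110 when 1 library was left out. With the 150 nM libraries summed, 7390 H3K4me3 peaks were called, 7299 of them among the 7937. The causes were not tested.

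For H3K4me3 the deviations of same-numbered libraries were hardly correlated (0.00466 to 0.0489). With a replicate block 8142 H3K4me3 peaks were called between the doses, 1428 of the kind not called against DMSO and 913 of the stricter kind. For H3K27ac the correlation was 0.00262 to 0.133, and the block raised the calls between the doses from 687 to 1186. Whether replicate numbers pair the H3K27ac libraries was not tested further.

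Scaling by total counts gave 4658 higher and 2910 lower peaks between the doses. Fitting the scaling along abundance turned the difference of medians between gene starts and other peaks to 0.0474. Leaving out 150 nM replicate 2 turned the H3K27ac median at lower H3K4me3 peaks to 0.0264 (range -0.0915 to 0.0264 over the libraries). List medians near 0 changed sign: with scaling along abundance to 0.00353 for H3K4 methyltransferase complexes, 0.0107 for H3K9 methylation, 0.0705 for the BCL2 family, 0.0407 for oxidative stress, 0.0607 for the cell cycle and 0.041 for ribosomal proteins. With total counts they were 0.0247, 0.0306 and 0.00908 for the BCL2 family, cell cycle and ribosomal proteins. Requiring 50 reads on average gave 0.0344 for the BCL2 family and 0.0185 for the cell cycle. Leaving out 1 library gave -0.0295 to 0.0291 for the BCL2 family, -0.0573 to 0.0279 for iron handling, -0.0183 to 0.0189 for the cell cycle and -0.0283 to 0.0205 for interferon. The hypoxia and glycolysis list stayed lower at 15 (DESeq2) or 16 genes in each alternative, and the stress response list had 8 to 13 genes higher. The 24 largest changes at gene-start peaks above the median abundance kept their direction and call in 360 of 360 refits, and the 16 small ones in 208 of 240. With 2 libraries per group an exact test of a single value cannot go below p = 0.333.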
